A study of Rattus norvegicus with 10 samples.

Results

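Fasting fuel switch genes with the uncoupling protein Ucp3 were followed in muscle taken from under the skin of arthritic rats. The 9 genes were Ucp3, Ucp2, Pdk4, Angptl4, Cpt1a, Cpt1b, G0s2, Pnpla2 and Lpl, chosen by symbol among the 16497 symbols (17221 transcripts) of the table. Each had 1 transcript, and all 9 passed the filter on low values that kept 10259 transcripts. Ucp3 and G0s2 had been picked because they differed in opposite directions between acupuncture and placebo at 34 days, so their 34 day values are given below as a description, without a test. The same holds for all 9 genes in that comparison.

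Every animal was a female Wistar rat immunised with bovine type II collagen, which gives an arthritis of the paws (collagen-induced arthritis, labelled RA). RNA-seq was done on 10 rats, 2 in each of 5 groups. RA_0 rats were sampled before any therapy, AP_1h and AP_34d rats 1 h and 34 days into acupuncture, and PLA_1h and PLA_34d rats at the same times under placebo. Acupuncture was a short steel needle, twirled, at points of the lower back and the leg; the tissue was cut from around the stimulated points. Placebo was sterile saline injected into the peritoneum and not at those points, and all rats were shaved. Needling was given every other day and saline once a week. Over the 34 days the 2 therapies thus also differed in handling, which cannot be told apart from the needling. Chow was freely available to the rats. Age, the hour of sampling and the feeding state at sampling are not given in the sources used here, and RA_0 was sampled at a single time, so therapy, elapsed time and handling cannot be told apart in a comparison with RA_0.

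The genes belong to the switch from glucose to fatty acids as muscle fuel, which is best known from fasting. Fatty acids come from circulating triglyceride, split by lipoprotein lipase (Lpl) and held back by its inhibitor Angptl4, or from droplets inside the fibre, split by adipose triglyceride lipase (Pnpla2) and held back by its inhibitor G0s2. Cpt1b, the muscle form of carnitine palmitoyltransferase 1, and Cpt1a, the liver form, commit fatty acids to the mitochondrion. Pdk4 phosphorylates and switches off pyruvate dehydrogenase, which closes the entry of glucose carbon. Ucp3 is a carrier of the inner mitochondrial membrane found mainly in skeletal muscle, and Ucp2 is its close relative with a wide tissue range. Several of the 9, among them Ucp3, Pdk4 and Angptl4, are known targets of the PPAR family of fatty acid receptors.

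Levels are CPM, the reads of a transcript per 1000000 reads of its library after TMM scaling, as deposited by the authors. The libraries held 5371687 to 8899521 reads on transcripts, so 1 CPM stood for 4.19 to 10.1 reads and a count of 3 reads, taken as the floor, for 0.297 to 0.716 CPM. Markers of muscle were abundant in every library, with the 5 muscle identity transcripts summing to between 79942 and 240379 CPM (Acta1 and Ckm leading). The libraries differed in fibre type. The 6 slow fibre markers, led by Myh7 and Myl3, summed to 19952 and 10055 CPM in RA_0, 972 and 1120 in AP_1h, 4173 and 1840 in PLA_1h, 11136 and 1889 in AP_34d and 19882 and 1702 in PLA_34d. The 7 fast fibre markers (Myh4 and Myh1 first) summed to between 59424 CPM, in PLA_34d replicate 1, and 159946 CPM. Within that sum, Myh1 was at 6070 and 10230 CPM in AP_1h against 21230 to 38430 in the other libraries. Myh2 was at 2938 and 5131 CPM in AP_1h against 6194 to 11884. Myh4, at 34987 and 65741 CPM in AP_1h against 13292 to 62049, and the remaining fast fibre markers were not lower in both AP_1h libraries. The 2 PLA_34d libraries had the lowest correlation between replicates over the transcripts tested (r = 0.916, against 0.94 to 0.961 in the other groups). Replicate 1 of PLA_34d also had the lowest mean correlation with all other libraries (r = 0.906, against 0.936 to 0.954). Of other cells, the adipocyte list summed to 152 to 384 CPM (Fabp4 and Cfd first, Cidec under the floor throughout and Pparg at no more than 0.594 CPM), macrophage markers to 55.0 to 195 (C1qb and C1qa first, Ptprc at 0), endothelial markers to 109 to 216 (Cdh5 and Pecam1) and red cell markers to 212 to 576 (Hba-a2 and Hbb). Cidec, Pparg and Ptprc each have several transcripts in the table, and reads common to overlapping transcripts are dropped by the counting, so their low values are uncertain. Of the brown adipocyte markers, the defining Ucp1 was at 0 in every library and Dio2 at or under the floor, so the list (19.0 to 55.1 CPM) rested on Ppargc1a and Cidea. In bulk tissue fewer cells of a type and less RNA per cell cannot be told apart.

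Promoter sequence is shown for Ucp3, for the 2 genes whose levels ran closest to it (Pdk4 and Angptl4) and for G0s2, which went the other way at 34 days. Each line gives the 250 bases before the RefSeq start, 5′ to 3′ on the gene's strand, in lower case with motif matches on either strand in capitals.
Ucp3, GRCr8 chr1:164227660-164227909, plus strand: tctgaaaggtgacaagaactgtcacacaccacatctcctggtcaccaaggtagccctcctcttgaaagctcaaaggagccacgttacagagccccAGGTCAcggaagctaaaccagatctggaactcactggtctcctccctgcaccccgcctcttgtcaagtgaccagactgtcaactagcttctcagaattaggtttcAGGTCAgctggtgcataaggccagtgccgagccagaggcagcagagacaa
Pdk4, GRCr8 chr4:34568330-34568579, minus strand: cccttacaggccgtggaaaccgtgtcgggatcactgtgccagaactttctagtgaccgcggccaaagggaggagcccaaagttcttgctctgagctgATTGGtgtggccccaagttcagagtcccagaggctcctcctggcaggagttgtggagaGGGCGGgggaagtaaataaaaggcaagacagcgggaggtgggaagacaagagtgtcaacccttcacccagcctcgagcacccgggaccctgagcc
Angptl4, GRCr8 chr7:15258682-15258931, minus strand: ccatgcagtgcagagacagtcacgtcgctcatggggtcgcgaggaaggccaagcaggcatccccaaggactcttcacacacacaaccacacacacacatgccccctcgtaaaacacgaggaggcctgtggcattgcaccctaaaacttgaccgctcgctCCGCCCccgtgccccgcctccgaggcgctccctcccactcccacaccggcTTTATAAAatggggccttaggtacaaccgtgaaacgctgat
G0s2, GRCr8 chr13:107335949-107336198, minus strand: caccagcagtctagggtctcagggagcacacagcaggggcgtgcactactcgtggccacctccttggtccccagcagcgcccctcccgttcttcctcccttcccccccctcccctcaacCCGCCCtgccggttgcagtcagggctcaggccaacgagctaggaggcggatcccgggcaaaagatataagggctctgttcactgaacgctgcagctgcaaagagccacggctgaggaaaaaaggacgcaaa
Of the 9 genes, 7 had an entry in the RefSeq promoter table, and 33469 promoters of the same length were searched. AGGTCA, the unit that many nuclear receptors bind, occurred in 14.1% of all promoters and in 1 of the 7, Ucp3, whose 2 matches began 155 and 50 bases before the start. The direct repeat AGGTCANAGGTCA, the arrangement PPAR and its partner RXR are known to bind, was found in 0.0508% of promoters and in none of the 7 windows. GTAAACA (FoxO), CACGTG (E-box) and the palindrome of the glucocorticoid receptor were present in 3.21%, 5.59% and 0.012% of promoters and not in these 7. The GC box GGGCGG (30.5% of promoters) lay in 4 of the 7, namely Pdk4, Angptl4, G0s2 and Pnpla2. CCAAT (34% of promoters) lay in Pdk4 alone of the 7. TATAAA (12.9%) lay in Angptl4 alone, where its matches on both strands overlap. The matches describe these windows only.

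Ucp3 varied more than any other of the 9 genes but Angptl4, its highest library standing 41.6-fold above its lowest. Its level was 36.3 and 103 CPM in the 2 RA_0 libraries (replicate 1 first, here and below), 858 and 1008 in AP_1h, 403 and 399 in PLA_1h, 1177 and 528 in AP_34d, and 28.3 and 69.7 in PLA_34d. The 2 libraries of AP_1h, PLA_1h and AP_34d therefore all lay above those of RA_0 and PLA_34d. Ordered by mean, AP_1h (933 ± 106, SD, n = 2) came first, then AP_34d (852 ± 459), PLA_1h (401 ± 3.0), RA_0 (69.8 ± 47.5) and PLA_34d (49.0 ± 29.3). Neighbours in that order overlapped in their libraries at AP_1h with AP_34d and at RA_0 with PLA_34d. The gene lies at rn4 chr1:157896001-157909609.

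After 1 h of acupuncture Ucp3 was 13.4-fold above RA_0, as the ratio of group means. The log2 difference was 3.90 ± 0.58 (SE; on log2(CPM + 1), as for all log2 values here), and limma gave an adjusted p = 0.0806, short of the threshold of 0.05. On the reads recovered from the table DESeq2 gave an adjusted p = 2.34e-07, edgeR 0.119 and limma-voom 0.159, and over all alternatives the adjusted p ran from 2.34e-07 to 0.475. It passed limma when only the compared groups were fitted, and without PLA_34d replicate 1 or replicate 2 (adjusted p = 0.0425 and 0.0422), libraries that enter this comparison only through the shared estimate of spread. After 1 h of placebo Ucp3 was 5.74-fold above RA_0, a log2 difference of 2.69 ± 0.58 with a limma adjusted p = 0.9997, against 0.0219 with DESeq2. Between the 2 therapies at 1 h it was 2.33-fold higher under acupuncture without overlap of the libraries, and the log2 difference of 1.21 ± 0.58 did not pass (limma adjusted p = 0.9999, lowest over alternatives 0.693). At 34 days its mean was 17.4-fold higher under acupuncture than under placebo, log2 4.12, which is the difference it was picked for. With AP_34d replicate 1 left out that log2 difference was 3.54, and with replicate 2 left out 4.70. The slow fibre sum was lower than in RA_0 in both 1 h groups, where Ucp3 was higher, and overlapped between AP_34d and PLA_34d. The endothelial sum was higher in AP_34d (172 to 216 CPM) than in PLA_34d (153 to 161). The part of these markers was not tested. Against its own 1 h group, Ucp3 at 34 days was 1.09-fold lower under acupuncture, with overlap, and 8.19-fold lower under placebo, without.

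**Figure D1:**
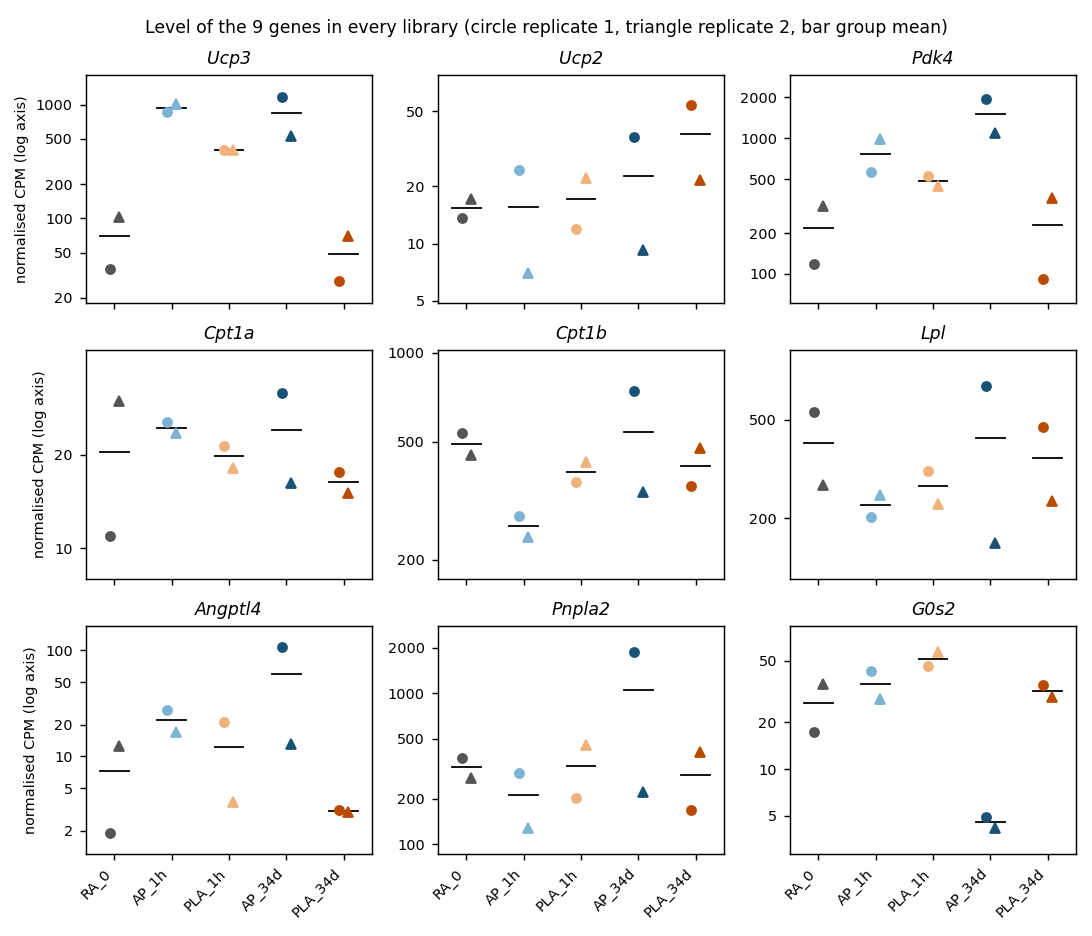
Level of each of the 9 genes in the 10 libraries, in normalised CPM on a log axis, by group. Circles are replicate 1, triangles replicate 2 and bars group means. Ucp3 and Pdk4 are lowest in RA_0 and PLA_34d, G0s2 is lowest in AP_34d (4.88 and 4.18 CPM), and AP_34d replicate 1 is the highest library for 7 of the 9 genes.

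Ucp2 did not follow Ucp3, although both lie on chromosome 1 on the same strand, Ucp2 starting 15905 bases past the end of Ucp3 (rn4 chr1:157925514-157928222). It stood at 13.6 and 17.2 CPM in RA_0, 24.3 and 7.0 in AP_1h, 11.9 and 22.3 in PLA_1h, 36.3 and 9.26 in AP_34d, and 54.1 and 21.6 in PLA_34d. Replicates differed by up to 3.92-fold, and every pair of neighbouring groups overlapped. In PLA_34d alone both libraries exceeded both of RA_0, by 2.45-fold in the mean, with a log2 difference of 1.11 ± 0.71 that did not pass (limma adjusted p = 0.914). The adipocyte marker sum was also higher in PLA_34d (295 to 339 CPM) than in RA_0 (158 to 250), and its part was not tested. Over the 10 libraries the log2 levels of Ucp2 and Ucp3 had r = -0.32, a description over libraries that share groups.

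Pdk4 (rn4 chr4:30235296-30245298) ran closest to Ucp3 among the 9 genes. Its level was 119 and 319 CPM in RA_0, 561 and 979 in AP_1h, 526 and 443 in PLA_1h, 1946 and 1094 in AP_34d, and 92.4 and 363 in PLA_34d. As with Ucp3, both libraries of AP_1h, PLA_1h and AP_34d lay above all of RA_0 and PLA_34d. In the order of means, AP_34d (1520 ± 602, SD, n = 2), AP_1h (770 ± 295), PLA_1h (485 ± 58.9), PLA_34d (228 ± 191) and RA_0 (219 ± 141), the last pair overlapped. The mean of AP_34d was 6.95-fold that of RA_0, a log2 difference of 2.90 ± 0.67 (limma adjusted p = 0.722; DESeq2 0.00718; edgeR and limma-voom above the threshold). At 1 h the log2 difference from RA_0 was 1.92 ± 0.67 under acupuncture (limma adjusted p = 0.428) and 1.31 ± 0.67 under placebo (limma adjusted p = 0.9997). Acupuncture exceeded placebo at 1 h by 0.62 ± 0.67 on the log2 scale (limma adjusted p = 0.9999). From 1 h to 34 days the log2 difference was 0.98 ± 0.67 under acupuncture and -1.39 ± 0.67 under placebo, neither past the threshold (limma adjusted p = 0.954 and 0.9985), with no overlap of libraries in either. In PLA_34d the gene was back among the RA_0 values, at a log2 difference of -0.08 ± 0.67 (limma adjusted p = 0.985).

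Angptl4 (rn4 chr7:16261623-16267852), the inhibitor of lipoprotein lipase, was a low transcript with a wide range. Its level was 1.91 and 12.6 CPM in RA_0, 27.7 and 16.9 in AP_1h, 21.1 and 3.69 in PLA_1h, 108 and 13 in AP_34d, and 3.14 and 2.99 in PLA_34d. The lowest value, in RA_0 replicate 1, stood on 8 reads (exact Poisson 95% interval 0.824 to 3.76 CPM, counting error only), and the highest, in AP_34d replicate 1, on 552 reads (99.0 to 117 CPM). Replicates of AP_34d differed 8.30-fold. Against RA_0 the mean was 3.07-fold higher in AP_1h, a log2 difference of 1.85 ± 1.01 (limma adjusted p = 0.656), and 8.31-fold higher in AP_34d, a log2 difference of 2.63 ± 1.01 (limma adjusted p = 0.967) that was 1.15 without AP_34d replicate 1. Under placebo the 34 day libraries both lay below those at 1 h (log2 -1.33 ± 1.01, limma adjusted p = 0.9985). The nearest of them, 3.14 and 3.69 CPM, had overlapping counting intervals (2.09 to 4.54 and 2.28 to 5.63 CPM). At 34 days acupuncture stood 19.7-fold above placebo in the mean, log2 3.26, which was 1.78 without AP_34d replicate 1, and the 2 AP_34d libraries both exceeded both of PLA_34d.

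Lpl itself (rn4 chr16:22533105-22556905) differed less between groups. Its values were 537 and 272 CPM in RA_0, 202 and 249 in AP_1h, 310 and 227 in PLA_1h, 687 and 159 in AP_34d, and 470 and 234 in PLA_34d. AP_1h lay below RA_0 in both libraries, 1.8-fold lower in the mean, with a log2 difference of -0.77 ± 0.64 that did not pass (limma adjusted p = 0.774). All neighbouring groups overlapped, and AP_34d held both its highest and its lowest library, 4.32-fold apart.

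**Figure D2:**
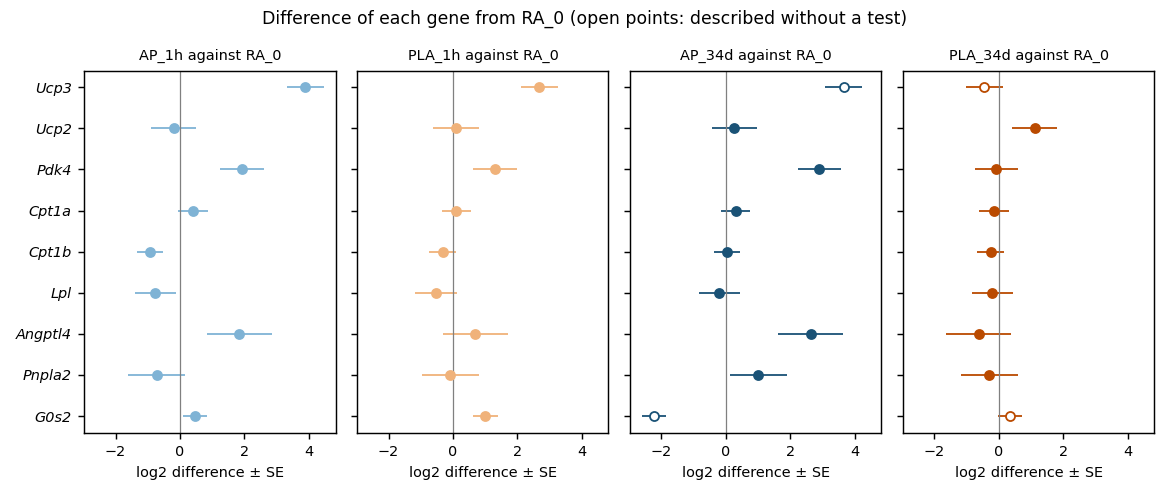
Difference of each gene from RA_0 on the log2(CPM + 1) scale, as points with the limma standard error, in AP_1h, PLA_1h, AP_34d and PLA_34d. Filled points were tested and open points, Ucp3 and G0s2 at 34 days, are described only. The largest differences are those of Ucp3, 3.90 in AP_1h and 3.66 in AP_34d, and G0s2 in AP_34d lies at -2.23.

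Pnpla2 (rn4 chr1:201641939-201647021), the lipase that opens stored triglyceride, owed its highest group mean to 1 library. It measured 374 and 276 CPM in RA_0, 294 and 128 in AP_1h, 203 and 453 in PLA_1h, 1893 and 221 in AP_34d, and 168 and 407 in PLA_34d. The AP_34d mean was 3.25-fold that of RA_0, a log2 difference of 1.01 ± 0.88 (limma adjusted p = 0.967), but without AP_34d replicate 1 the log2 difference was -0.54. Against AP_1h the log2 difference of AP_34d was 1.73 ± 0.88 (limma adjusted p = 0.940), and 0.19 without that library. No pair of groups was separate for Pnpla2 in the 8 comparisons made.

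G0s2 (rn4 chr13:109121297-109122209), which blocks the Pnpla2 enzyme, was the only gene of the 9 with both AP_34d libraries below all other libraries. It measured 17.4 and 35.6 CPM in RA_0, 42.7 and 28.3 in AP_1h, 46.0 and 57.0 in PLA_1h, 4.88 and 4.18 in AP_34d, and 34.9 and 29.3 in PLA_34d. The 2 AP_34d values came from 25 and 28 reads, with exact Poisson 95% intervals of 3.16 to 7.21 and 2.78 to 6.04 CPM (counting error only). The mean of AP_34d (4.53 ± 0.495, SD, n = 2) was 7.08-fold below that of PLA_34d (32.1 ± 3.96), log2 -2.58, the difference the gene was picked for. It was also 5.85-fold below RA_0 and 7.83-fold below AP_1h, both sharing the libraries that chose it. At 1 h, on libraries that did not choose it, G0s2 was 1.94-fold above RA_0 under placebo with no overlap, a log2 difference of 1.01 ± 0.38 (limma adjusted p = 0.9997). Under acupuncture at 1 h the log2 difference from RA_0 was 0.46 ± 0.38, with overlap (limma adjusted p = 0.766). Acupuncture lay below placebo at 1 h in both libraries, by log2 -0.55 ± 0.38 (limma adjusted p = 0.9999). The ratio of Pnpla2 to G0s2 within a library, which is read only between libraries, was 388 and 52.8 in AP_34d and between 4.41 and 21.5 in the other 8.

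**Figure D3:**
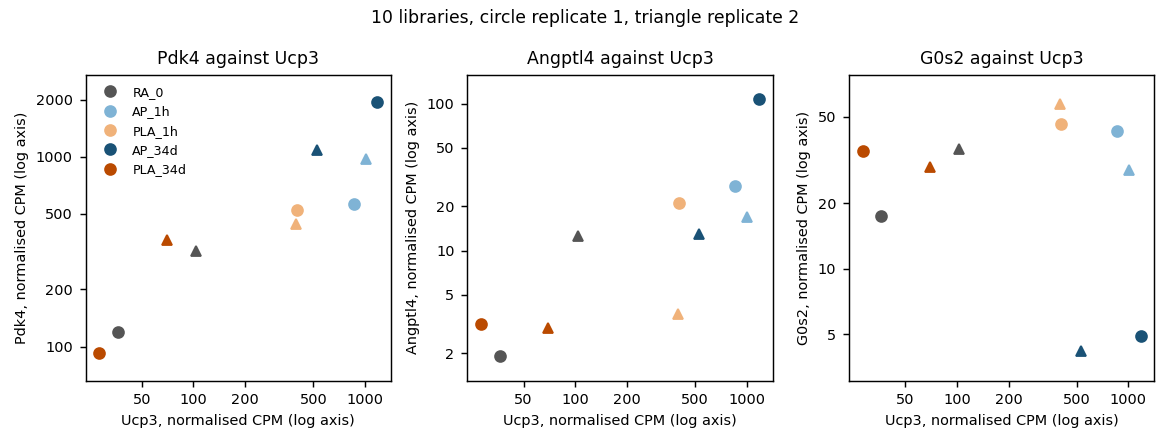
Levels of Pdk4, Angptl4 and G0s2 against Ucp3 in the 10 libraries, all in normalised CPM on log axes, coloured by group, circles replicate 1 and triangles replicate 2. Pdk4 lies along a line with Ucp3 (r = 0.92), Angptl4 does so with wider scatter (r = 0.80), and G0s2 shows no such line (r = -0.24), its AP_34d libraries lying apart at 4.88 and 4.18 CPM.

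The carnitine step was steadier. Cpt1b (rn4 chr7:127737129-127746179), the muscle form, measured 534 and 452 CPM in RA_0, 281 and 237 in AP_1h, 364 and 426 in PLA_1h, 741 and 338 in AP_34d, and 354 and 476 in PLA_34d. Both AP_1h libraries were below every other library. They were 1.90-fold below RA_0 in the mean, a log2 difference of -0.93 ± 0.41 (limma adjusted p = 0.554), and by log2 -0.61 ± 0.41 below PLA_1h (limma adjusted p = 0.9999). PLA_1h lay below RA_0 too, by log2 -0.32 ± 0.41 (limma adjusted p = 0.9997). AP_34d was 2.08-fold above AP_1h with no overlap, a log2 difference of 0.95 ± 0.41 (limma adjusted p = 0.912), and 0.39 without AP_34d replicate 1. Cpt1a (rn4 chr1:205852800-205912972), the form of liver and many other tissues, measured 11 and 29.9 CPM in RA_0, 25.4 and 23.5 in AP_1h, 21.4 and 18.1 in PLA_1h, 31.6 and 16.3 in AP_34d, and 17.6 and 15.1 in PLA_34d. The spread within RA_0, 2.72-fold, was nearly the full range of the gene (2.88-fold). AP_1h lay above PLA_1h by log2 0.30 ± 0.46 (limma adjusted p = 0.9999) and PLA_34d below PLA_1h by log2 -0.26 ± 0.46 (limma adjusted p = 0.9985), both without overlap. In each the nearest libraries differed within counting error. At 1 h of acupuncture Cpt1b thus lay below RA_0, while both Cpt1a values lay between the 2 of RA_0. The Cpt1a mean was 1.2-fold that of RA_0, and its log2 difference ran from -0.28 to 1.09 over the alternatives.

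Taken by comparison, limma called none of the genes tested, where it called 0.0292% of all transcripts in AP_1h against RA_0 and 0 in the others. In AP_1h against RA_0, 5 of the 9 genes had libraries that did not overlap (Ucp3, Pdk4 and Angptl4 higher, Cpt1b and Lpl lower), where 41.6% of all transcripts tested did (20.6% higher, 21.0% lower). Of the 9, 3 had an unadjusted p under 0.05 (Ucp3, Pdk4 and Cpt1b; background 8.89%), and DESeq2 called 1, Ucp3 (background 1.62%). In PLA_1h against RA_0, 4 did not overlap (Ucp3, Pdk4 and G0s2 higher, Cpt1b lower; background 29.4%, 15.8% higher and 13.6% lower), 2 had an unadjusted p under 0.05 (Ucp3 and G0s2; background 2.59%) and DESeq2 called Ucp3 (background 0.0975%). In AP_34d against RA_0, 4 did not overlap (Ucp3, Pdk4 and Angptl4 higher, G0s2 lower), beside a background of 32.3% (16.4% higher and 15.9% lower). Ucp3 and G0s2 are in this count on libraries that chose them. Of the 7 genes tested there, 2 had an unadjusted p under 0.05 (Pdk4 and Angptl4; background 4.77%), and DESeq2 called Pdk4 (background 0.349%). In PLA_34d against RA_0, only Ucp2 had libraries apart, higher (background 31.0%, 16.8% higher), and none of the 7 tested had an unadjusted p under 0.05 (background 3.2%) or a DESeq2 call (background 0.37%). The 4 comparisons share the RA_0 libraries, and edgeR and limma-voom called none of the genes in any of them.

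Acupuncture against placebo at 1 h left 5 genes without overlap (Ucp3, Pdk4 and Cpt1a higher, Cpt1b and G0s2 lower; background 30.6%, 13.9% higher and 16.7% lower). None of the 9 passed limma, none had an unadjusted p under 0.05 (background 4.04%), and DESeq2, edgeR and limma-voom called none. At 34 days the libraries of 4 genes were apart (Ucp3, Pdk4 and Angptl4 higher under acupuncture, G0s2 lower; background 31.0%, 16% higher and 15% lower), in the contrast that chose Ucp3 and G0s2. From 1 h to 34 days, 3 genes were apart under acupuncture (Pdk4 and Cpt1b higher, G0s2 lower), beside a background of 33.1% (17.1% higher and 16% lower). G0s2 is in this count on libraries that chose it. Of the 7 tested, Cpt1b alone had an unadjusted p under 0.05 (background 5.35%). Under placebo 5 were apart (background 27.2%), all lower at 34 days (background for lower 14.4%), namely Ucp3, Pdk4, Angptl4, Cpt1a and G0s2. Ucp3 and G0s2 are among them on libraries that chose them. None of the 7 tested had an unadjusted p under 0.05 (background 2.96%). No tool called a member in either time comparison. With 2 rats against 2, an exact permutation test cannot go below p = 0.333, so single genes were read from the fit across all transcripts.

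Among 8145 transcripts with a mean of at least 5 CPM, those most like Ucp3 over the 10 libraries were Nufip1 (Pearson r = 0.93, Spearman rho = 0.98), Tnfrsf12a, the receptor of the cytokine TWEAK (r = 0.93, rho = 0.93), and Arntl, a core gene of the circadian clock (r = 0.92, rho = 0.90). Pdk4 ranked next, at 4 (r = 0.92, rho = 0.95), Angptl4 at 87 (r = 0.80) and Cpt1a at 520 (r = 0.60). Nufip1 spanned only 15.1 to 26.2 CPM. Arntl stood at 2.62 and 3.86 CPM in RA_0, 22.6 and 24.9 in AP_1h, 17.2 and 14.2 in PLA_1h, 24.8 and 17.5 in AP_34d, and 7.07 and 5.69 in PLA_34d. Tnfrsf12a was 6.51 to 10.7 CPM in RA_0 and PLA_34d, 16.9 and 23.0 in PLA_1h, and 37.2 to 66.6 in both acupuncture groups. At the other end were Kremen1 (r = -0.94), Mum1 (-0.92) and Rcor2 (-0.91). Most like G0s2 were Pcyox1l (r = 0.87), Rcbtb2 (0.85) and Ngrn (0.84), and least like it Nup88 (-0.86), Polr3e (-0.85) and Cirh1a (-0.85). With each library left out in turn, r ran from 0.90 to 0.98 for the 3 nearest Ucp3 and from 0.71 to 0.93 for those nearest G0s2. The 10 libraries share 5 groups, so these values describe a shared pattern of groups as much as of rats.

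The rest of the pathway was read from 6 lists holding 109 symbols, of which 102 were found, giving 102 transcripts tested. No list transcript passed limma in any of the 8 comparisons or in the interaction of therapy and time. In AP_1h against RA_0, 20 of 102 had an unadjusted p under 0.05 (5 higher, 15 lower; background 8.89%). DESeq2 called 5 there (background 1.62%), of which Nr4a3 was higher and Ldhb, Esrrg, Oxct1 and Slc25a34 lower. In AP_1h against PLA_1h it called 3 (Slc25a25 higher, Ldhb and Esrrg lower; background 0.388%), in AP_34d against AP_1h 2 (Ldhb higher, Slc25a25 lower; background 0.444%) and in the interaction 1 (Slc25a25; background 0.214%). Slc25a25 measured 504 and 114 CPM in AP_1h, 54.8 and 49.0 in PLA_1h, and 54.1 and 44.1 in AP_34d. It was at 68.9 and 96.7 CPM in RA_0 and at 50.4 and 117 in PLA_34d. Its AP_1h mean thus rested mainly on replicate 1, and AP_1h replicate 2 lay below PLA_34d replicate 2. Ldhb, the heart form of lactate dehydrogenase, measured 1099 and 512 CPM in RA_0, 70.8 and 61.3 in AP_1h, 305 and 308 in PLA_1h, 578 and 170 in AP_34d, and 513 and 261 in PLA_34d. Its log2 difference in AP_1h from RA_0 was -3.49 ± 0.58 (limma adjusted p = 0.0934). Nr4a3, an orphan nuclear receptor gene that responds early to muscle activity, had 0.954 and 1.19 CPM in RA_0 and 15.2 and 10.2 in AP_1h, log2 2.71 ± 0.45 (limma adjusted p = 0.0934). A second Nr4a3 transcript in the table stayed below the filter, and reads common to both could not be assigned by the counting.

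Of the 25 transcripts of the carnitine shuttle and beta oxidation list, 21 had a mean log2 level below RA_0 after 1 h of acupuncture and 4 above, none of them called. Against RA_0, 19 of the 25 had both AP_1h libraries below both RA_0 libraries (background for lower 21.0%) and none had both above, with a median log2 difference of -0.79 (0.00 over all transcripts tested). None passed limma, 3 had an unadjusted p under 0.05, and edgeR and DESeq2 called none. Against PLA_1h, 19 of 25 were again apart and lower (background for lower 16.7%), with a median of -0.65. By mean log2 level 24 of 25 were higher in AP_34d than in AP_1h, and 13 were apart and higher (background for higher 17.1%). The median was 0.63, which was 0.17 without AP_34d replicate 1 and 1.16 without replicate 2. Under the 3 other scalings tried those medians lay between -0.80 and -0.67, -0.63 and -0.57, and 0.53 and 0.63. In PLA_1h against RA_0 the median was -0.04, and 0.01 with the 20 most abundant transcripts left out of the scaling. There 4 of 25 were apart and higher (background for higher 15.8%) and 0 lower (background for lower 13.6%). Crat, the mitochondrial carnitine acetyltransferase, measured 1341 and 758 CPM in RA_0 and 594 and 572 in AP_1h, and Hadhb, a subunit of the trifunctional protein, 956 and 620 against 472 and 568. The slow fibre sum was lower in AP_1h than in RA_0 and than in PLA_1h, without overlap, and higher in AP_34d than in AP_1h. It was also lower in PLA_1h (1840 to 4173 CPM) than in RA_0 (10055 to 19952), where the list median was -0.04. The sums of muscle identity markers (84431 to 123040 CPM in AP_1h, 123421 to 240379 in RA_0) and of red cell markers (214 in both AP_1h libraries, 255 to 576 in RA_0) were lower in AP_1h than in RA_0 as well. Of the fast fibre markers, Myh1 and Myh2 were lower in both AP_1h libraries than in every other library. The part of these markers in the result was not tested. In RA_0 the library with the higher slow fibre sum also had the higher sum of the list (8624 against 5479 CPM). The same held in AP_34d (8614 against 4621) and in AP_1h (4085 against 3805). In PLA_34d the library with 19882 CPM of slow fibre markers had 4100 CPM of the list and the other 7246. In PLA_1h the library with 4173 CPM of slow fibre markers had 5191 CPM of the list and the other 8182.

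**Figure D4:**
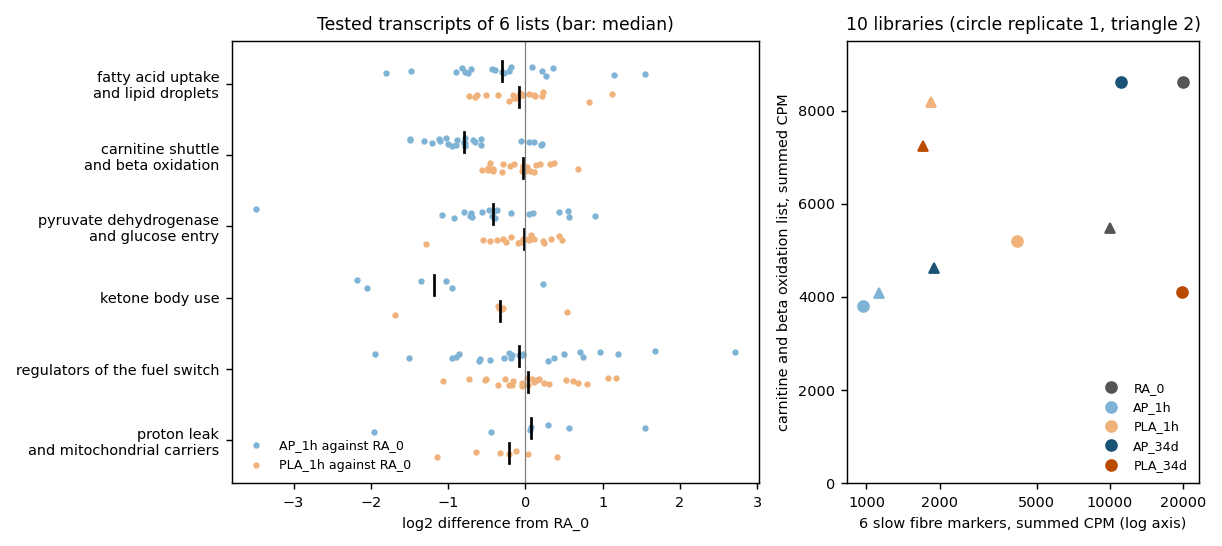
Left, log2 difference from RA_0 of every tested transcript of the 6 lists, in AP_1h and in PLA_1h, with the list median as a bar. Right, summed CPM of the carnitine and beta oxidation list against summed CPM of the 6 slow fibre markers (log axis) in each library, circles replicate 1 and triangles replicate 2. The carnitine list has its median at -0.79 in AP_1h and -0.04 in PLA_1h, and both AP_1h libraries lie at the lower left of the right panel.

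In the other lists the ketone body genes were lower in AP_1h than in RA_0 without overlap for 5 of 6 transcripts (background for lower 21.0%), median log2 -1.19, among them both transcripts of Oxct1 and Acat1, the leading members. The slow fibre, muscle identity and red cell sums given above, and Myh1 and Myh2, were lower in this comparison too, and their part was not tested. The list for fatty acid uptake and droplets had 4 of 19 apart and higher and 6 lower in AP_1h (background 20.6% and 21.0%, for the next lists as well), median -0.30 (Acsl1 and Fabp3 its most abundant). The pyruvate dehydrogenase list had 2 of 20 higher and 7 lower, median -0.42 (Ldha and Txnip first). Regulators had 5 of 25 higher and 6 lower, median -0.08 (Foxo4 and Nr4a1 first), and the 7 mitochondrial carriers 2 higher and 1 lower, median 0.08 (Slc25a4 and Slc25a25 first). In the other comparisons the list transcripts with the smallest unadjusted p, none past limma, were as follows. Higher in PLA_1h than in RA_0 was Acsl3 (log2 1.12 ± 0.49), an acyl-CoA synthetase, and lower Ldhb (-1.29 ± 0.58). Higher in AP_34d than in RA_0 was Foxo1, a transcription factor active in fasting (2.12 ± 0.61), and lower Bdh1 (-2.25 ± 0.88), for ketone oxidation. Bdh1 measured 27.2 and 3.12 CPM in RA_0 and 2.93 and 0.299 in AP_34d. The last value was under the floor of its library (0.448 CPM), and RA_0 was high in replicate 1 alone. Higher in PLA_34d than in RA_0 was Prkaa2, a catalytic subunit of AMP-activated kinase (1.81 ± 0.83), and lower Slc25a34 (-1.32 ± 0.53). In AP_1h against PLA_1h these were Nr4a3 (2.09 ± 0.45) and Esrrg, an orphan receptor of oxidative fibres (-1.69 ± 0.34). In AP_34d against PLA_34d, where 6 of 102 had an unadjusted p under 0.05 (background 5.47%), they were Dgat2, for triglyceride synthesis (0.97 ± 0.34), and Ppara, a fatty acid receptor (-1.14 ± 0.41). From 1 h to 34 days they were Ldhb (2.23 ± 0.58) and Nr4a3 (-1.90 ± 0.45) under acupuncture, and Ppargc1b (1.32 ± 0.56) and Decr1 (-0.97 ± 0.42) under placebo. In the interaction they were a transcript of Hadha (1.68 ± 0.60) and Slc25a25 (-2.83 ± 0.87). Their limma adjusted p ran from 0.481 to 0.9998.

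Many of the highest values came from a single rat. AP_34d replicate 1 was the highest of the 10 libraries for 7 of the 9 genes, all but Ucp2 and G0s2, where it was the highest for 7.06% of all transcripts tested. It was also the highest for 9 of 19 transcripts of the fatty acid uptake and droplet list and for 11 of 25 of the carnitine and beta oxidation list, but for 1 of 20 of the pyruvate dehydrogenase list, 1 of 6 of the ketone list, 0 of the 25 regulators and 0 of the 7 carriers. Chosen after their values were seen, Plin5, which coats droplets at the mitochondrion, measured 77.5 CPM there against 9.53 to 27 in the others. Lipe, hormone-sensitive lipase, measured 150 against 29.9 to 58.3, and Cd36, a fatty acid transporter, 393 against 84.1 to 227. The other AP_34d rat did not share this for Plin5 (10.8 CPM), Lipe (38.8) or Cd36 (154). The adipocyte sum was highest in the same library, 384 CPM against 152 to 339 in the others, and its part was not tested. Fabp4, also on the fatty acid uptake list, made up 318 CPM of it (115 to 283 in the others). Of the 5 adipocyte markers tested Fabp4 alone was highest there, and 4 were highest in PLA_34d replicate 1. Cfd was at 44.5 CPM (8.11 to 54.2), Adipoq at 18.2 (1.67 to 73.0), Plin1 at 1.56 (0 to 16.4) and Lep at 0.977 (0 to 10.3). Without replicate 1 the log2 difference of AP_34d from RA_0 was 3.08 for Ucp3 and 2.49 for Pdk4, -2.33 for G0s2, and below 0 for Ucp2, Cpt1a, Cpt1b, Pnpla2 and Lpl.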

How the data were processed

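RNA from 10 muscle samples of separate rats (2 per group) was sequenced from TruSeq v2 libraries, a kit that does not mark strand; whether counting used strand is not given in the sources used here. The authors called bases with CASAVA 1.8.2, trimmed with cutadapt 1.2.1, aligned to rn4 with Bowtie2 2.1.0, which does not align across splice junctions, counted per transcript with HTSeq 0.5.4p3, and scaled with edgeR 3.4.2. The deposited signal is TMM-scaled CPM, a count per 1000000 reads. Reads common to overlapping transcripts are lost by such counting. Whole reads came out of 100% of values within 0.01 read. Groups and replicate numbers follow the titles of the samples.

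A transcript was tested if some group had 1 CPM or more in each of its libraries (10259 of 17221, 59.6%). The test was limma 3.58.1 on log2(CPM + 1), all 10 libraries in 1 fit, with variances shrunk towards a trend over mean level (residual degrees of freedom 5, prior 5.14), Benjamini-Hochberg adjustment and a threshold of 0.05. The pseudocount understates differences of low transcripts. Fold values are ratios of group means. On recovered reads, edgeR 4.0.16, limma-voom and DESeq2 1.42.0 were alternatives (R 4.3.3), beside other pseudocounts, filters, scalings, fits and left-out libraries. The fit was run on simulated counts as a check of the code. These carried no differences in fibre type between libraries, so they do not show how the fit performs here. Intervals and floors cover counting error only.

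The 9 genes and the lists were chosen with earlier results of these data known. All 9 are named throughout. From the lists were named every call, the transcript with the smallest p in each direction per comparison, and the 2 most abundant per list. For likeness the 3 highest and 3 lowest r were named among transcripts with a mean of at least 5 CPM. Promoters are RefSeq sequence on GRCr8, while positions of transcripts are rn4.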

Additional observations from a re-analysis of the deposited data

Results flagged for a closer look

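Pdk4 differed between 1 h and 34 days in opposite directions under the 2 therapies. Both AP_34d libraries (1946 and 1094 CPM) lay above both AP_1h libraries (561 and 979 CPM), and both PLA_34d libraries (92.4 and 363 CPM) lay below both PLA_1h libraries (526 and 443 CPM). The difference between the time differences was 2.37 on the log2 scale. It was not tested, because AP_34d against PLA_34d is part of it and that comparison was used to choose the genes. Groups of 2 were not searched for outlying samples.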

How the results depend on the processing

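With 2 rats per group, 247 of 264 recomputed values of the 11 main results counted as unchanged. So did 1074 of 1101 recomputed values of the 56 single values. Among the main results, the counts of calls, all 0 with limma, were unchanged where they stayed 0. The differences of Ucp3 and G0s2 were unchanged where they kept their direction and moved less than the replicate spread. Single tests were unchanged where they kept their direction and side of the threshold, and r where it moved by less than 0.10. In most cases this means only that a value not called stayed not called. Calls among the 9 genes and the lists in AP_1h against RA_0, 0 with limma, were 5 with only the compared groups fitted (Ucp3, Ldhb, Nr4a3, Esrrg and Slc25a34) and 6 with DESeq2 (Oxct1 added), and 0 to 1 with each library left out (Ldhb without AP_34d replicate 1, Ucp3 without PLA_34d replicate 1 or 2). DESeq2 called 1 in PLA_1h against RA_0 (Ucp3), 1 in AP_34d against RA_0 (Pdk4), 3 in AP_1h against PLA_1h (1 with only the compared groups fitted, Ldhb), 2 in AP_34d against AP_1h and 1 in the interaction. The log2 difference of G0s2, AP_34d minus PLA_34d, -2.58, was -2.76 with a pseudocount of 0.25, -2.08 with 4, -2.73 without the 20 most abundant transcripts in the scaling, -2.81 with limma-voom, -2.82 with edgeR and -2.83 with DESeq2. Signs turned for G0s2, AP_1h against RA_0 (-0.0352 to 0.96 with each library left out, the first without RA_0 replicate 1) and for Pnpla2, AP_34d against RA_0 (-0.54 to 2.55, negative without AP_34d replicate 1). The value of Pdk4, PLA_34d against RA_0, -0.08, was 0.0048 with quantile normalization, 0.10 without the 20 most abundant, 0.0582 with edgeR, 0.0522 with DESeq2 and -1.07 to 0.90 with each library left out (0.63 without RA_0 replicate 2, 0.90 without PLA_34d replicate 1). The causes were not tested. The replicate block gave 0 calls. Replicate numbers share no animal, and same-numbered libraries deviated with r from -0.464 to 0.446 over 10 pairs of groups, so they were not treated as pairs. At 3 reads the floor was 0.297 to 0.716 CPM, which among the 9 genes limits G0s2 in AP_34d and Angptl4 most. Of the list transcripts named, Nr4a3 in RA_0 (0.954 and 1.19 CPM) lay nearer to it. Bdh1 in AP_34d replicate 2 (0.299 CPM) lay under the floor of its library.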
